A study of Mus musculus with 2 samples.

Results

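The δ chain of the γδ T cell receptor takes its variable end from a V gene segment, and the use of these segments was followed in immature γδ T cells of the fetal mouse thymus. Members were all gene symbols that start with Trdv, or that start with Trav and carry a dv suffix, which marks a V segment shared by the α and δ chains. There were 16 such symbols among the 31053 genes of the deposited tables, and the 9 with at least 20 UMIs over both libraries are described here. A UMI is a tag that marks 1 captured RNA molecule.

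The series holds 2 single-cell libraries, made with a kit that reads the 5′ end of transcripts. Per the labels, thymic lobes of wild-type C57BL/6 embryos were taken at embryonic day 15, kept in culture for 2 days and left untreated. CD24+ γδ T cells were then sorted by TMRE, a dye that mitochondria take up according to their membrane potential, into a bright fraction (TMREhi) and a dim fraction (TMRElo). Each fraction gave 1 library, so no test between them was possible, no p-value is given, and all intervals are 95% intervals that cover counting error only. How many embryos or lobes went into each library is not stated in the labels, and the CD24+ gate is common to both fractions.

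A δ chain gene is assembled by joining a V segment to D, J and constant segments, so the V segment is a lasting mark of that chain. In the mouse, Trdv4 encodes Vδ1, which pairs with the Vγ5 chain in precursors of epidermal γδ T cells and with Vγ6 in a fetal wave of γδ T cells that make IL-17. Segments of the Trav15 family encode Vδ6, which pairs with Vγ1 in a subset of γδ T cells with innate-like features that express the transcription factor Zbtb16.

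The 9 segments lie on chromosome 14, and their positions and sequences are given from GENCODE vM21 on GRCm38. The start of the constant gene Trdc is the reference point for distance, with negative values for segments that precede it on the plus strand. Trdv4 starts at -67.9 kb, Trdv2-2 at -181.9 kb, Trdv1 at -261.2 kb and Trav21-dv12 at -266.9 kb. Farther out lie Trav13-4-dv7 at -385.5 kb, Trav15-2-dv6-2 at -493.4 kb, Trav15-1-dv6-1 at -583.2 kb and Trav15d-1-dv6d-1 at -1279.6 kb. Trdv5 stands alone in lying 5.8 kb after the start of Trdc on the minus strand, where its annotated span overlaps Trdc by 207 bases. The V exons of Trdv4 (chr14:54075217-54075515, plus strand) and Trdv2-2 (chr14:53961304-53961602, plus strand) are shown first, because these segments led the largest numbers of barcodes. Capitals mark the stretch from the last in-frame cysteine codon to the end of the V segment, where it is joined to the rest of the chain.
Trdv4: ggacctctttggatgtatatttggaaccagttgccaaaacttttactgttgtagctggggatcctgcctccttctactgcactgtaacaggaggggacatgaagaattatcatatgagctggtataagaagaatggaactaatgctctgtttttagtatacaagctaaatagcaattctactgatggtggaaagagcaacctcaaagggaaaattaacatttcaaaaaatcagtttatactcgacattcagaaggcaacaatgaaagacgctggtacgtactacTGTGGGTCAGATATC
Trdv2-2: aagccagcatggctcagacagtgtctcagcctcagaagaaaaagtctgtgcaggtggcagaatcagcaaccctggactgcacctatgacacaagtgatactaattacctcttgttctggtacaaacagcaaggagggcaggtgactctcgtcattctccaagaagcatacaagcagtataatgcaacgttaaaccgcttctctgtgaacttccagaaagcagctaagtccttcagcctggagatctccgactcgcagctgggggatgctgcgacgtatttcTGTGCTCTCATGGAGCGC

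The last 60 bases of the other members show the germline ends that enter the junction, with the same use of capitals. Trdv2-1, which is not a member, is added because it is nearly identical to Trdv2-2, and its end lies at chr14:53946601-53946660 on the plus strand. The ends lie at chr14:54148662-54148721 on the minus strand for Trdv5, and on the plus strand at chr14:53882158-53882217 for Trdv1, chr14:53560188-53560247 for Trav15-1-dv6-1, chr14:52863877-52863936 for Trav15d-1-dv6d-1, chr14:53649935-53649994 for Trav15-2-dv6-2, chr14:53757862-53757921 for Trav13-4-dv7 and chr14:53876693-53876752 for Trav21-dv12.
Trdv2-1: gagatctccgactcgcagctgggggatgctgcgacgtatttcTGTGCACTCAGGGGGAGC
Trdv5: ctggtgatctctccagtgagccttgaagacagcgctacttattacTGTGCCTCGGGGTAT
Trdv1: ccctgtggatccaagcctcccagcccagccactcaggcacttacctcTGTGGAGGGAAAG
Trav15-1-dv6-1: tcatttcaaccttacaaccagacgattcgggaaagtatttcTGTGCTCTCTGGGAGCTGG
Trav15d-1-dv6d-1: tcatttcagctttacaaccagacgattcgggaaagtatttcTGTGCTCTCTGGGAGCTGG
Trav15-2-dv6-2: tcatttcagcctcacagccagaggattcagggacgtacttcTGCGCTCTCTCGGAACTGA
Trav13-4-dv7: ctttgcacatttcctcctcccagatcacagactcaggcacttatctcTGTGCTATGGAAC
Trav21-dv12: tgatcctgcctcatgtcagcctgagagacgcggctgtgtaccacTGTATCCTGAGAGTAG

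How far these sequences are unlike bears on how well the counting could tell them apart. The V exons of Trdv4 and Trdv2-2 were 51.8% identical. Trdv2-1 and Trdv2-2 were 97.7% identical, and Trav15-1-dv6-1 and Trav15-2-dv6-2 77.9%. Trav15-1-dv6-1 and Trav15d-1-dv6d-1 had 288 aligned bases in common and 15 that differed. Every stretch of 60 bases in the V exons of Trdv4, Trdv1 and Trav21-dv12 occurred in no transcript of another gene. That share was 98.0% for Trav15-1-dv6-1, 80.5% for Trav15-2-dv6-2, 42.7% for Trav13-4-dv7, 40.6% for Trdv5 (shared with Trdc), 32.1% for Trdv2-2 and 0.0% for Trav15d-1-dv6d-1. Counts of Trdv2-2 may therefore have lost or gained reads with Trdv2-1, which had 0 UMIs in both libraries, and with the overlapping gene Gm43647, which had 58 UMIs in TMREhi and 7 in TMRElo. Counts of the Trav15 segments are likewise uncertain as single genes and are also given as a family. Trav15d-1-dv6d-1 and Trav15-1-dv6-1 also share stretches with Trav15n-1, and Trav15-2-dv6-2 with Trav15n-2. Those genes carry no dv suffix and lie outside the family as summed, so the sum does not remove this uncertainty.

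Over all deposited barcodes the 9 members held 1406 UMIs for Trdv4, 653 for Trdv2-2, 287 for Trdv5, 179 for Trav13-4-dv7, 150 for Trav15d-1-dv6d-1, 137 for Trav15-1-dv6-1, 105 for Trav15-2-dv6-2, 85 for Trdv1 and 46 for Trav21-dv12. Trav21-dv12 was the member nearest to the limit of 20 UMIs, and Trav6-7-dv9, with 14, came closest from below. The other 6 symbols had 5 UMIs or fewer, among them the pseudogene Trdv3 with 1. Barcodes with at least 500 genes were used from here on, 1025 of 1202 in TMREhi and 133 of 196 in TMRElo, with 4235563 and 219352 UMIs. Their median depth was 2031 UMIs in TMREhi and 1113 in TMRElo, and the libraries shared 0 barcodes. Those with under 15% of UMIs from ribosomal protein genes are called low-ribosomal, and there were 733 in TMREhi and 117 in TMRElo. The high-ribosomal rest, 292 and 16 barcodes, were deeper, with medians of 8356.5 and 4071 UMIs. Their median mitochondrial share was 3.55% in TMREhi and 3.92% in TMRElo, against 16.9% and 14.4% in the low-ribosomal barcodes. Class, depth and mitochondrial share therefore go together in every contrast of classes below. All 8 γδ T cell markers were detected in both libraries, at a summed 2416 UMIs per 1000000 UMIs (CPM) in TMREhi and 2959 CPM in TMRElo, while B cell and erythroid markers were at 0 in both. Cd24a, the gene for the CD24 antigen of the sort, stood at 127 CPM (536 UMIs) in TMREhi and at 13.7 CPM (3 UMIs) in TMRElo, a ratio of 9.25 (3.15–45.01). All 3 myeloid markers were present in TMREhi, at a summed 59.3 CPM, and at 0 in TMRElo.

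A δ V segment was seen in most TMREhi barcodes, and more often at greater depth. At least 1 δ V UMI was present in 621 of the TMREhi barcodes (60.6%) and in 67 of the TMRElo barcodes (50.4%). In the low-ribosomal class the shares were 50.3% in TMREhi and 47.0% in TMRElo, and in the high-ribosomal class 86.3% and 75.0%. Thinned to 1000 UMIs, the TMREhi shares were 43.4% of 578 low-ribosomal and 40.3% of 288 high-ribosomal barcodes. Thinned to 2000 UMIs they were 44.2% of 240 and 58.6% of 278. Free RNA in droplets can give such UMIs in cells that do not make the chain. For comparison, 165 TMREhi barcodes had a UMI of the recombinase gene Rag1 and none of a γ V segment. They were set against 641 with a γ V UMI and none of Rag1. Median depths were 1188 UMIs in the Rag1 barcodes and 2478 in the γ V barcodes. Cells with Rag1 may be joining δ segments of their own, so the Rag1 barcodes do not measure free RNA alone. A δ V UMI was present in 25.5% of the Rag1 barcodes and in 75.7% of the γ V barcodes. Thinning to 1000 UMIs left out shallower barcodes and kept 91 Rag1 and 600 γ V barcodes, with shares of 20.9% and 48.0%. Those kept had median depths of 2099 and 2710 UMIs before thinning. By segment and before thinning, Trdv4 was in 2.42% of the Rag1 barcodes and 26.7% of the γ V barcodes. Trdv2-2 was in 9.70% and 24.8%, and Trdv5 in 1.82% and 11.9%. Trdv1 (5.45% and 2.03%) and Trav21-dv12 (3.64% and 1.87%) were no more frequent in γ V barcodes than in the Rag1 barcodes. The 177 TMREhi barcodes under 500 genes, left out above, had a median depth of 628 UMIs. Trdv1 and Trav21-dv12 were each in 0.565% of them, Trdv4 in 6.21% and Trdv2-2 in 2.26%. Neither set separates free RNA from a cell's own transcripts, so these shares of barcodes are not read as a level of either. Single barcodes could still hold many Trdv1 UMIs, and the TMREhi barcode with most had 18 beside 42 γ V and 17 Trdc UMIs. Where the Trdv1 UMIs of Rag1 barcodes came from was not tested.

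Trdv4 was the most abundant δ V segment in TMREhi, and Trdv2-2 and Trdv4 were level in TMRElo. Trdv4 had 1338 UMIs in 202 TMREhi barcodes (316 CPM, 299–333) and 43 UMIs in 5 TMRElo barcodes (196 CPM, 142–264). Of the 43 TMRElo UMIs, 33 lay in 1 barcode. Trdv2-2 had 597 UMIs in 199 TMREhi barcodes (141 CPM, 130–153) and 45 UMIs in 27 TMRElo barcodes (205 CPM, 150–275). The barcodes with Trdv4 thus numbered 202 and 5, while those with Trdv2-2 numbered 199 and 27. Trdv4 held 46.7% of the δ V UMIs in TMREhi and 27.0% in TMRElo, and without its top barcode 7.94% in TMRElo. The direction turned with at least 1000 genes per barcode, at 40.4% in TMREhi and 54.1% in TMRElo, and when thinned to 2000 UMIs, at 49.9% and 72.7%. Both settings kept the TMRElo barcode with 33 Trdv4 UMIs, which had 1466 genes and 2985 UMIs. The TMRElo shares then rested on 40 of 74 and 24 of 33 δ V UMIs. Trdv2-2 held 20.8% in TMREhi and 28.3% in TMRElo.

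The remaining segments were each below these levels in TMREhi. Trdv5 had 257 UMIs in 88 TMREhi barcodes (60.7 CPM) and 27 in 17 TMRElo barcodes (123 CPM). Trav13-4-dv7 had 177 UMIs in 39 TMREhi barcodes (41.8 CPM) and 2 UMIs in 1 TMRElo barcode (9.12 CPM). In the Trav15 family, Trav15d-1-dv6d-1 had 138 UMIs in 58 TMREhi barcodes (32.6 CPM) and 10 in 8 TMRElo barcodes (45.6 CPM). Each of its relatives was scarcer in TMREhi. Trav15-1-dv6-1 had 127 UMIs in 47 TMREhi barcodes (30.0 CPM) and 8 in 6 TMRElo barcodes (36.5 CPM). Trav15-2-dv6-2 had 90 in 41 TMREhi barcodes (21.2 CPM) and 15 in 10 TMRElo barcodes (68.4 CPM). The lowest members were Trdv1, with 79 UMIs in 28 TMREhi barcodes (18.7 CPM) and 4 in 2 TMRElo barcodes (18.2 CPM), and Trav21-dv12, with 44 in 23 TMREhi barcodes (10.4 CPM) and 1 in 1 TMRElo barcode (4.56 CPM). In TMREhi the order from Trdv4 through Trdv2-2 to Trdv5 and then Trav13-4-dv7 had no overlapping intervals, whereas the intervals of Trav13-4-dv7 and Trav15d-1-dv6d-1, and of Trav15d-1-dv6d-1 and Trav15-1-dv6-1, overlapped. In TMRElo the intervals of Trdv2-2, Trdv4 and Trdv5 overlapped.

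**Figure D1:**
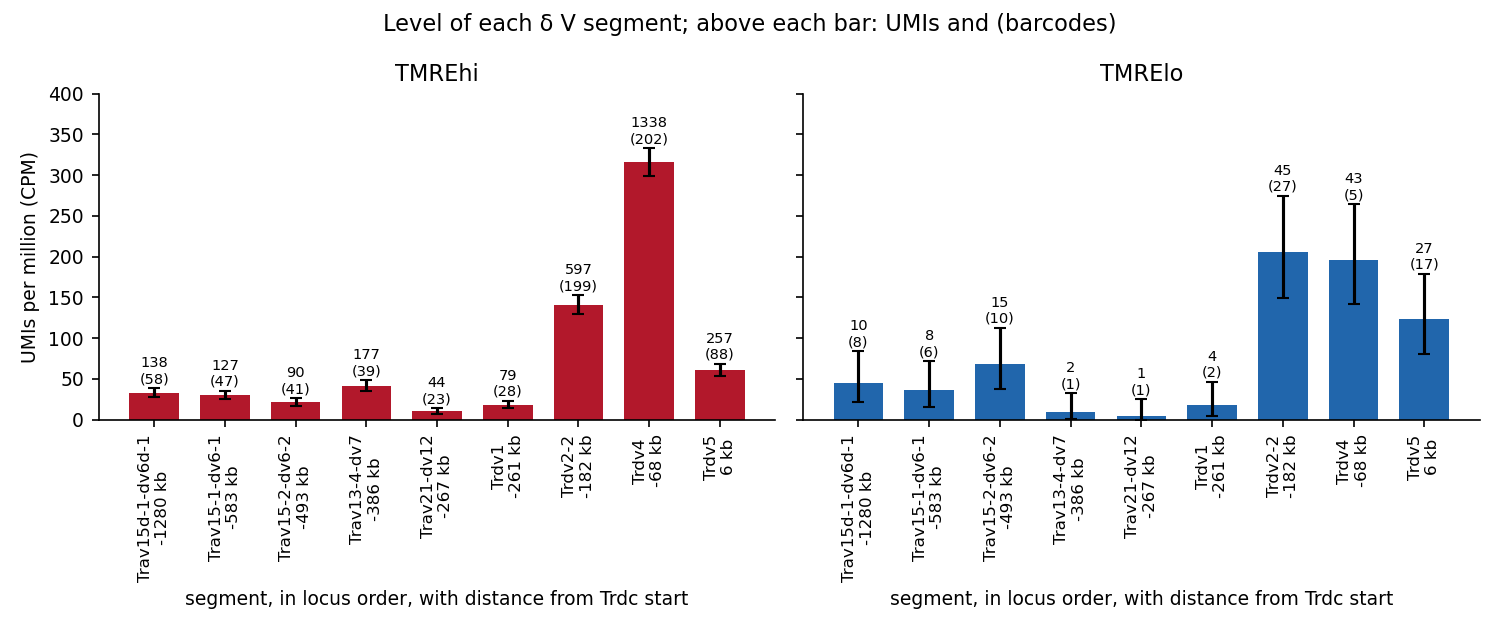
Level of each of the 9 δ V segments, in CPM, in TMREhi (left, n = 1025 barcodes) and TMRElo (right, n = 133), ordered along the locus with the distance of each start from Trdc. Bars are the level, whiskers the exact Poisson 95% interval, and the numbers above give UMIs and, in brackets, barcodes: Trdv4 stands at 1338 UMIs in 202 barcodes in TMREhi and at 43 UMIs in 5 barcodes in TMRElo.

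As ratios of CPM between the libraries, few segments passed 2-fold. At a mean of 10 CPM or more there were 8 members, of which 1 was higher in TMREhi by 2-fold or more and 2 were lower, where 11.0% of the 8507 genes compared were higher and 22.6% lower. The higher one was Trav13-4-dv7, at 4.58-fold (1.25–38.1) on 2 TMRElo UMIs. Trav15-2-dv6-2 was lower, at a ratio of 0.311 (0.179–0.578), and so was Trdv5, at 0.493 (0.331–0.763). The ratio was 1.61 (1.19–2.24) for Trdv4 and 0.687 (0.507–0.952) for Trdv2-2. Without the top barcode of each library, a setting chosen after seeing the data, the ratio of Trdv4 was 6.66 (3.61–13.9) on 10 TMRElo UMIs, and that of Trdv5 was 0.552 (0.360–0.887) and no longer past 2-fold. The ratio of Trdv2-2 was then 0.732 (0.533–1.03), with an interval that includes 1. The median log2 ratio of the 8 members, with 1 CPM added to each level, was -0.37 against -0.34 over all genes. In low-ribosomal barcodes 1 of 9 members was higher and 2 lower (background 16.5% and 14.2%). In high-ribosomal barcodes 3 of 6 were higher and 0 lower (background 12.6% and 20.6%), led by Trdv4 at 10.8-fold (2.97–89.0), with 745 UMIs in TMREhi and 2 in TMRElo. With Trav13-4-dv7, which had 0 TMRElo UMIs in that class, set at its bound, 2 were higher.

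Transcripts of Trdv4 were also concentrated in the barcodes that had them. A TMREhi barcode with Trdv4 held a median of 4 and a mean of 6.62 Trdv4 UMIs, although such barcodes had a median depth of 1698 UMIs. For Trdv2-2 the mean was 3.0 per positive barcode at a median depth of 3708, for Trdv5 2.92 and for Trav13-4-dv7 4.54. By class, Trdv4 averaged 4.63 UMIs per positive low-ribosomal barcode and 10.1 per positive high-ribosomal one, and Trdv2-2 averaged 1.83 and 4.25. The constant gene Trdc was also higher with Trdv4. It stood at 753 CPM in the 184 TMREhi barcodes led by Trdv4 and at 344 CPM in the 160 led by Trdv2-2, a ratio of 2.19 (1.90–2.52), and at 394 CPM (336–461) in the 67 led by Trdv5. No UMI of the D and J segments Trdd1, Trdd2, Trdj1 or Trdj2 was counted, so joining could not be followed beyond the V segment.

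Each barcode was next assigned to its leading segment, the single δ V segment with most UMIs in it. Trdv4 led in 184 of 621 TMREhi barcodes (29.6%, 26.1–33.4) and in 3 of 67 TMRElo barcodes (4.48%, 0.933–12.5). Trdv2-2 led in 160 TMREhi barcodes (25.8%, 22.4–29.4) and in 22 TMRElo barcodes (32.8%, 21.8–45.4). The intervals of the libraries did not overlap for Trdv4 and overlapped for Trdv2-2. For Trdv4 they overlapped with at least 1000 genes per barcode, at 20.6% (16.9–24.7) in TMREhi and 11.1% (1.38–34.7, 2 of 18) in TMRElo, and when thinned to 2000 UMIs, at 26.0% (20.9–31.7) and 14.3% (0.361–57.9, 1 of 7). The Trav15 family led in 106 TMREhi barcodes (17.1%, 14.2–20.3) and in 18 TMRElo barcodes (26.9%, 16.8–39.1). Trdv5 led in 67 (10.8%, 8.46–13.5) and 12 (17.9%, 9.61–29.2) of them. Both pairs of intervals overlapped. Within the family, Trav15d-1-dv6d-1 led in 43 TMREhi and 7 TMRElo barcodes, Trav15-1-dv6-1 in 35 and 5, and Trav15-2-dv6-2 in 27 and 6. Trav13-4-dv7 led in 31 TMREhi barcodes and 1 TMRElo barcode, Trdv1 in 22 and 2, and Trav21-dv12 in 17 and 0, and 28 and 8 barcodes were tied.

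Trdv4 led often in both ribosomal classes of TMREhi. It led in 117 of 369 low-ribosomal barcodes (31.7%, 27.0–36.7) and in 67 of 252 high-ribosomal ones (26.6%, 21.2–32.5). In TMRElo it led in 3 of 55 low-ribosomal barcodes (5.45%, 1.14–15.1) and in 0 of 12 high-ribosomal ones, too few to place it. The Trav15 family led in 21.8% of the high-ribosomal (16.9–27.4) and 13.8% of the low-ribosomal (10.47–17.8) TMREhi barcodes. After thinning to 1000 UMIs this gap was not seen, with 13.8% of 116 high-ribosomal (8.09–21.4) and 13.1% of 251 low-ribosomal (9.23–17.97) barcodes. The order of the classes turned for Trdv4, with 43.97% (34.8–53.5) and 35.5% (29.5–41.7), and the intervals overlapped. Before thinning, Trdv1 went the other way, with 1.59% of the high-ribosomal and 4.88% of the low-ribosomal barcodes, and Trav21-dv12 with 0.794% and 4.07%. After thinning to 1000 UMIs, which left out 159 TMREhi and 49 TMRElo barcodes, Trdv4 led in 140 of 367 TMREhi barcodes (38.1%, 33.2–43.3) and in 4 of 33 TMRElo barcodes (12.1%, 3.40–28.2). The order of Trdv4 and Trdv2-2 in TMREhi turned with the depth required: with at least 1000 genes per barcode Trdv4 led in 20.6% and Trdv2-2 in 30.5% of 436 barcodes.

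**Figure D2:**
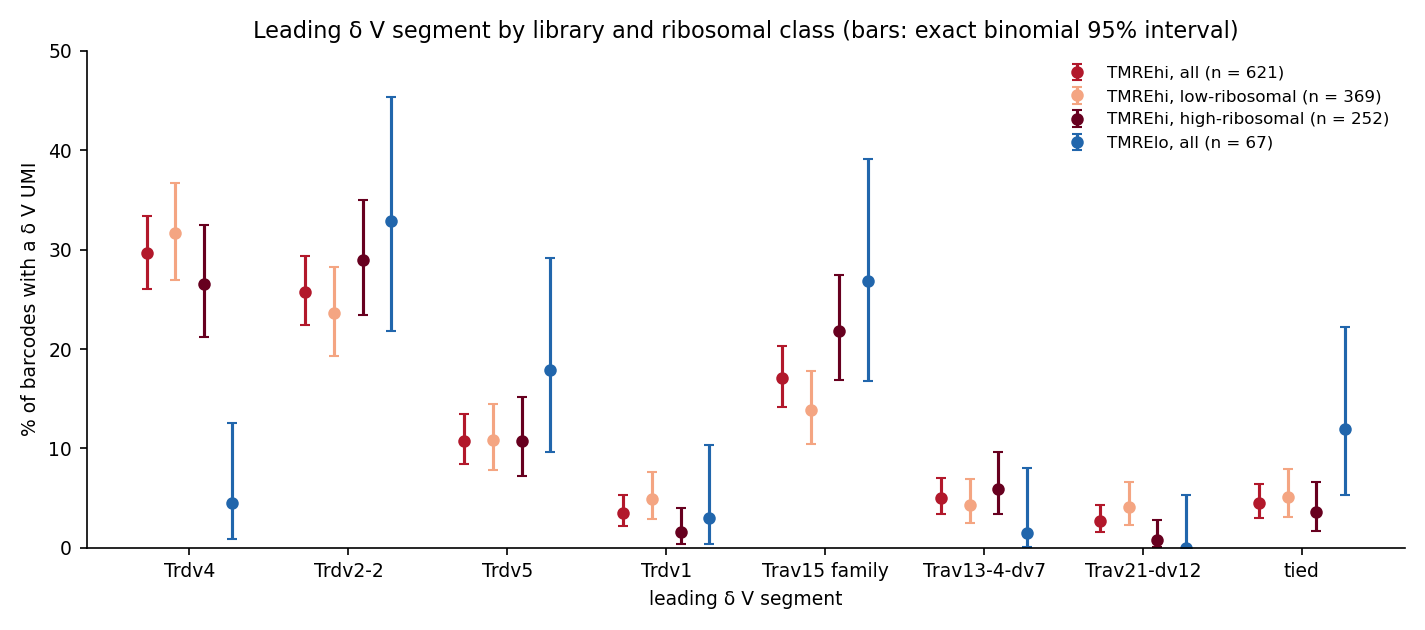
Share of barcodes with a δ V UMI in which each segment or the Trav15 family led, in percent, for TMREhi (all, low-ribosomal and high-ribosomal) and for all of TMRElo, with exact binomial 95% intervals as bars. Trdv4 stands at 29.6% in TMREhi and at 4.48% in TMRElo, with intervals that do not overlap at this setting and do overlap with at least 1000 genes per barcode.

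The 5 TMRElo barcodes with Trdv4 were looked at one by one. The barcode with 33 Trdv4 UMIs had 2985 UMIs in all, 9 of them from Trdc and none from a γ V segment. The next had 6 Trdv4 UMIs and 7 Trdc UMIs, with 1 UMI each of Tcrg-V5 and Trgv2. The others had 2, 1 and 1 Trdv4 UMIs. Mitochondrial UMIs made up 18.5%, 17.7% and 17.6% of the barcodes with 33, 6 and 2 Trdv4 UMIs, and 11.2% and 3.19% of the rest. None of the 5 held a UMI of Maf, Blk or Sox13, which take part in the making of IL-17 by γδ T cells. Only the 3 with most Trdv4 UMIs were led by it, at depths of 2985, 1988 and 1341 UMIs. Sox13 was also lower with Trdv4 than with Trdv2-2 in TMREhi, as given below. Zeros of 3 genes in so few and shallow barcodes do not show whether the IL-17 programme was absent from them.

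Double use, the presence of UMIs from 2 or more δ V segments, was more frequent in deeper barcodes. It was seen in 109 of 621 TMREhi barcodes (17.6%, 14.6–20.8) and in 14 of 67 TMRElo barcodes (20.9%, 11.9–32.6). The shares were 25.8% in high-ribosomal and 11.9% in low-ribosomal TMREhi barcodes (65 of 252 and 44 of 369), and 7 of 12 and 7 of 55 in TMRElo. Double barcodes had a median depth of 3950 UMIs in TMREhi against 2356.5 for single ones, and of 1388.5 against 1026 in TMRElo. After thinning to 1000 UMIs the share was 8.17% (30 of 367) in TMREhi and 12.1% (4 of 33) in TMRElo. The 2 TMREhi classes then stood at 7.76% (high-ribosomal) and 8.37% (low-ribosomal), so the gap between them was not seen at equal depth. With 2 UMIs required of a segment the shares were 9.36% in TMREhi and 6.90% in TMRElo.

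The second segment of a double barcode was mostly a single molecule. It had 1 UMI in 71 of the 109 TMREhi barcodes and in 12 of the 14 TMRElo barcodes. In 38 TMREhi and 2 TMRElo barcodes it had 2 or more UMIs, and 10 TMREhi barcodes held 3 segments. Treating the Trav15 family as 1 segment left 105 and 13 double barcodes. Double barcodes also carried more γ chains, with 2 or more γ V segments in 77.1% of them against 55.9% of single barcodes in TMREhi, and in 71.4% against 39.6% in TMRElo. Scrublet, a doublet caller, marked 0 of the 109 double barcodes in TMREhi, and in TMRElo 3 of the 14 double (21.4%) and 11 of the 53 single ones (20.8%). The caller marked 2 of 1025 barcodes in TMREhi as a whole, so it gives little guidance there. Trdv2-2 was in most of the frequent pairs. It was found with Trdv5 in 12 TMREhi barcodes, with Trav15-2-dv6-2 in 11, with Trav15d-1-dv6d-1 in 10, with Trdv4 in 10 and with Trav15-1-dv6-1 in 9, and Trdv4 was found with Trdv5 in 9. The part of free RNA, of barcodes that hold more than 1 cell, and of cells that transcribe more than 1 δ V segment, in these pairs was not tested.

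**Figure D3:**
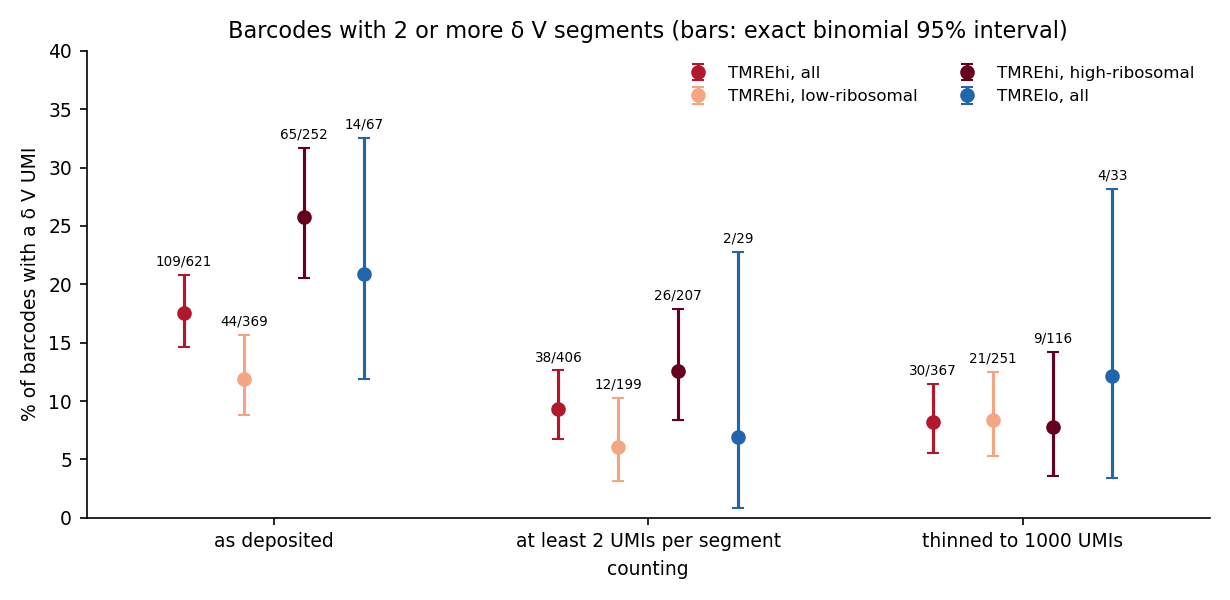
Share of barcodes with a δ V UMI that held 2 or more δ V segments, in percent, counted on all UMIs, with at least 2 UMIs required per segment, and after thinning to 1000 UMIs. Bars are exact binomial 95% intervals and the fractions give barcodes. The gap between the TMREhi classes, 65 of 252 against 44 of 369 on all UMIs, is 9 of 116 against 21 of 251 after thinning.

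The γ partner set Trdv4 apart from the other segments. Of 142 TMREhi barcodes led by Trdv4 that also had a leading γ V segment, Tcrg-V6 led in 86 (60.6%, 52.0–68.7), Tcrg-V5 in 27 (19.0%, 12.9–26.4), Trgv2 in 22 (15.5%, 9.97–22.5), Tcrg-V1 in 4 and Tcrg-V4 in 3. Tcrg-V6 and Tcrg-V5 encode the Vγ6 and Vγ5 chains named above as partners of Vδ1. Seen from the γ side, 97 TMREhi barcodes were led by Tcrg-V6 and 39 by Tcrg-V5, of which 91 and 30 also had 1 leading δ segment. That segment was Trdv4 in 86 of the 91 (94.5%) and in 27 of the 30. By class, Tcrg-V6 led in 66.7% of high-ribosomal and 56.1% of low-ribosomal Trdv4 barcodes, and Tcrg-V5 in 11.7% and 24.4%. In TMRElo no barcode had both Trdv4 and 1 γ segment in the lead, and among its 34 barcodes with both leads none was led by Tcrg-V6 or Tcrg-V5.

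The other segments shared partners among themselves. Each δ-led set in this paragraph holds only barcodes that also had 1 leading γ V segment, unless stated. Trgv2, Tcrg-V1 and Tcrg-V3 are nearly identical in sequence and are summed as the Vγ1 family. That family led in 96 of 128 TMREhi barcodes led by Trdv2-2 (75.0%, 66.6–82.2), in 72.2% of 54 led by Trdv5, in 68.2% of 22 led by Trav13-4-dv7 and in 87.0% of 69 led by the Trav15 family. Tcrg-V4, the Vγ4 chain, led in 25 of the Trdv2-2 barcodes (19.5%, 13.1–27.5), in 22.2% of the Trdv5, 27.3% of the Trav13-4-dv7 and 11.6% of the Trav15 family barcodes. Both Trdv2-2 and Trdv5 showed this partner mainly in low-ribosomal barcodes. It led in 7.58% of high-ribosomal and 32.3% of low-ribosomal Trdv2-2 barcodes, and in 4.17% and 36.7% of Trdv5 barcodes. Within the Vγ1 family, Tcrg-V1 led in 20.3% of Trav15 family barcodes (11.6–31.7) and in 3.91% of Trdv2-2 barcodes (1.28–8.88), which are intervals that do not overlap. How well the counting could tell Tcrg-V1 from its near-identical relatives was not tested. Of the 46 TMREhi barcodes led by Tcrg-V1, 30 also had 1 leading δ segment, and 14 of these (46.7%) were led by the Trav15 family. In TMRElo the Vγ1 family led in 24 of the 34 barcodes with both leads (70.6%) and Tcrg-V4 in 10 (29.4%). Of all 22 TMRElo barcodes led by Trdv2-2, 11 also had 1 leading γ segment, which was Tcrg-V4 in 5.

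**Figure D4:**
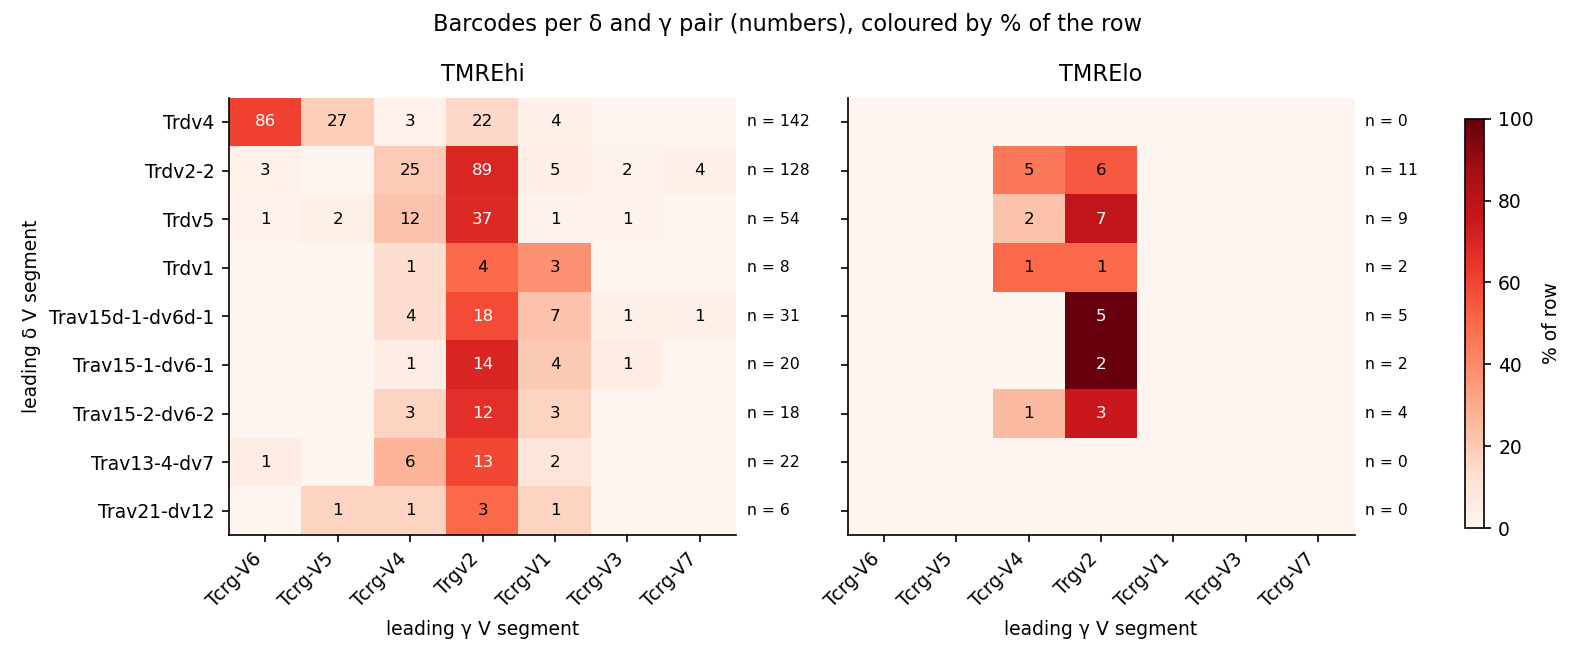
Number of barcodes for each pair of leading δ segment (rows) and leading γ segment (columns) in TMREhi (left) and TMRElo (right), coloured by percent of the row. Trdv4 is the row with most of its barcodes under Tcrg-V6 (86 of 142) and Tcrg-V5 (27). The other rows lie mainly under Trgv2, with most of their remaining barcodes under Tcrg-V4 and Tcrg-V1.

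Many barcodes led by the rarer segments had no γ V UMI. This held for 12 of 22 TMREhi barcodes led by Trdv1 and 8 of 17 led by Trav21-dv12, against 16 of 184 led by Trdv4 and 20 of 160 led by Trdv2-2. Rag1 also stood higher there, at 172 CPM in barcodes led by Trdv1 and 236 CPM in those led by Trav21-dv12, against 48.3 CPM for Trdv4 and 39.5 CPM for Trdv2-2. Of the Trav15-1-dv6-1 barcodes, the one with most UMIs of the segment, 11, had no γ V UMI and no Trdc UMI. The dv segments can also be part of an α chain. The αβ lineage markers (Ptcra, Rag1, Rag2, Cd4, Cd8a, Cd8b1 and Trac) include the recombination genes Rag1 and Rag2. They summed to 1142 CPM in TMREhi barcodes without a δ V UMI. In those led by Trdv4, the Trav15 family and Trdv2-2 the sums were 163 CPM, 198 CPM and 192 CPM. The part of αβ lineage cells in the counts of the dv segments was not tested.

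The barcodes led by Trdv4 differed from those led by Trdv2-2 in the gene of the sort marker itself. Cd24a had 4 UMIs in the 184 Trdv4-led TMREhi barcodes (7.42 CPM) and 211 UMIs in the 160 Trdv2-2-led ones (181 CPM), 24.4-fold lower (9.40–90.5) with Trdv4. The Trav15 family-led barcodes had 74 UMIs (109 CPM) and the Trdv5-led ones 62 (153 CPM). Trdv4-led barcodes thus had the lowest level of these 4 sets. No Cd24a UMI was found in the 86 barcodes with Trdv4 and Tcrg-V6 or in the 27 with Trdv4 and Tcrg-V5. After thinning to 1000 UMIs, Cd24a was in 1.23% of Trdv4-led barcodes (0.150–4.39) and in 13.5% of Trdv2-2-led ones (8.53–19.8). The difference was present in both classes, with 8.21 CPM against 199 CPM in high-ribosomal and 5.77 CPM against 101 CPM in low-ribosomal barcodes. Cd24a was singled out after its values were seen, and the RNA counts do not give the amount of CD24 protein.

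The same Trdv4-led and Trdv2-2-led barcodes were compared over gene lists for the programmes that γδ T cells acquire. The sets held 538857 and 1163696 UMIs, with median depths of 1641.5 and 3767.5 UMIs and 36.4% and 45.6% high-ribosomal barcodes. Myeloid markers stood at 39.0 CPM with Trdv4 and at 2.58 CPM with Trdv2-2, and their part in the differences was not tested. Of 20 measured genes of the IL-17 list (21 in all, measured meaning a mean of at least 10 CPM), 16 were higher by 2-fold or more with Trdv4 and 4 were lower. Over all 8044 genes compared, 16.2% were higher and 10.3% lower. The median log2 ratio of the list was 3.16 against 0.07 over all genes, and 3.17 with genes at 0 UMIs set at their bound. Of 13 measured genes of the IFN-γ and cytotoxic list (18 in all), 10 were higher and 2 lower (Gzma and Cd27), and their median log2 ratio was 3.41, or 4.02 at the bound. Within classes the IL-17 list had 14 of 21 genes higher and 4 lower in low-ribosomal barcodes (background 16.2% and 19.3%), and 16 of 20 and 4 in high-ribosomal ones (background 15.1% and 13.9%). Its median log2 ratio was 2.63 in low-ribosomal barcodes, or 1.49 at the bound, and 3.25 in high-ribosomal ones, or 3.36.

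The higher genes of the IL-17 list included receptors, transcription factors and Il17a itself. Cd163l1, a scavenger receptor of IL-17-producing γδ T cells, stood at 1962 CPM with Trdv4 and at 113 CPM with Trdv2-2, 17.4-fold (14.5–21.1). Il7r, the receptor chain for IL-7, stood at 1097 CPM and 130 CPM, 8.45-fold (7.06–10.2). Maf, a transcription factor these cells require, stood at 525 CPM and 143 CPM, 3.68-fold (3.03–4.49). All of these intervals exclude 1. Il23r, the receptor for IL-23, had 144 UMIs and 5 UMIs, 62.2-fold (26.0–194). Blk, a kinase of this lineage, stood at 269 CPM and 124 CPM, 2.17-fold (1.71–2.76). Il17a had 27 UMIs with Trdv4 and 0 with Trdv2-2, at least 19.4-fold, the bound taken against 3 UMIs in the set at 0.

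The 4 lower genes of the list were 5830411N06Rik, a scavenger receptor gene related to Cd163l1, the factors Sox4 and Sox13, and Etv5. 5830411N06Rik stood at 11.1 CPM with Trdv4 and at 351 CPM with Trdv2-2, 31.5-fold lower (14.3–86.3). Sox4 stood at 35.3 CPM and 250 CPM, 7.09-fold lower (4.46–12.0), and Sox13 at 42.7 CPM and 91.9 CPM, 2.15-fold lower (1.36–3.54). The IL-17 list was therefore divided between the segments, with Cd163l1 and Il23r on the side of Trdv4 and 5830411N06Rik and Sox4 on that of Trdv2-2. Dntt, whose enzyme TdT adds bases at the junctions of receptor genes, had 7 UMIs (13.0 CPM) with Trdv4 and 190 (163 CPM) with Trdv2-2, 12.6-fold lower (5.98–31.7). In high-ribosomal barcodes it had 0 UMIs and 144 UMIs. The αβ lineage list, unlike the marker sum above, holds Trbc1 and Trbc2 and neither Rag1 nor Rag2. Of its 7 genes 0 were higher and 3 lower (Trbc1, Trbc2 and Ptcra). Of the 8 γδ receptor genes 2 were higher (Trdc and Cd3e) and 1 lower (Tcrg-C2). Over all genes 16.2% were higher and 10.3% lower. Within classes, 3 of the 8 γδ receptor genes were higher and 0 lower in low-ribosomal barcodes, and 0 higher and 1 lower in high-ribosomal ones.

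Within Trdv4 the γ partner divided the programmes. The 86 barcodes with Tcrg-V6 and the 27 with Tcrg-V5 had γδ T cell markers at 3439 CPM and 3503 CPM, αβ lineage markers at 93.5 CPM and 75.2 CPM and myeloid markers at 0 in both. Their median depths were 1975.5 and 1576 UMIs. Of 17 measured genes of the IL-17 list 12 were higher by 2-fold or more with Tcrg-V6 and 0 lower, or 11 and 0 with genes at 0 UMIs set at their bound. Of 15 measured genes of the IFN-γ and cytotoxic list 0 were higher and 15 lower. Over all 7847 genes compared 16.1% were higher and 26.3% lower. The median log2 ratio was 2.73 for the IL-17 list (2.68 at the bound) and -4.06 for the IFN-γ and cytotoxic list, against -0.18 over all genes. In low-ribosomal barcodes 12 of 17 genes of the IL-17 list were higher (11 at the bound, with 1 lower) and 14 of 15 of the IFN-γ and cytotoxic list lower (background 25.6% higher and 33.8% lower). In high-ribosomal barcodes, of which Tcrg-V5 had only 7, 16 of 17 were higher (12 at the bound, with 2 lower) and 13 of 14 lower (background 26.0% and 24.2%).

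With Tcrg-V6, Cd163l1 stood at 2209 CPM against 346 CPM with Tcrg-V5, 6.39-fold (4.22–10.2). Maf stood at 705 CPM with Tcrg-V6 and 105 CPM with Tcrg-V5, 6.70-fold (3.19–16.9). Blk had 100 UMIs with Tcrg-V6 and 0 with Tcrg-V5, at least 7.98-fold. Thinned to 1000 UMIs, a Cd163l1 UMI was in 84.2% of Tcrg-V6 barcodes (74.0–91.6) and 8.0% of Tcrg-V5 barcodes (0.984–26.0), and a Maf UMI in 57.9% and 12.0%. Il17a had 21 UMIs with Tcrg-V6, 42.9% of them in 1 barcode, and 0 with Tcrg-V5.

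The genes lower with Tcrg-V6 included receptor, chemokine and granzyme genes of cytotoxic cells. Klrd1, which encodes the receptor chain CD94, stood at 147 CPM with Tcrg-V6 and at 2811 CPM with Tcrg-V5, 19.1-fold lower (13.5–27.4). Fcer1g, a signalling adaptor, stood at 71.9 CPM and 2059 CPM, 28.6-fold lower (17.8–48.3). The chemokine genes followed, with Ccl5 at 158 CPM and 5908 CPM and Xcl1 at 86.3 CPM and 1894 CPM. Thinned to 1000 UMIs, a Klrd1 UMI was in 9.21% of Tcrg-V6 barcodes (3.78–18.1) and in 80.0% of Tcrg-V5 barcodes (59.3–93.2), and an Fcer1g UMI in 7.89% and 76.0%. The granzyme genes rested on few barcodes. Gzmb stood at 43.2 CPM and 1142 CPM, with 91.7% and 57.9% of its UMIs in 1 barcode each, and Gzma at 25.2 CPM and 1654 CPM, with 61.8% of the Tcrg-V5 UMIs in 1 barcode. The values for Klrd1 in high-ribosomal barcodes were 81.2 CPM and 2148 CPM, and in low-ribosomal ones 350 CPM and 3545 CPM.

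**Figure D5:**
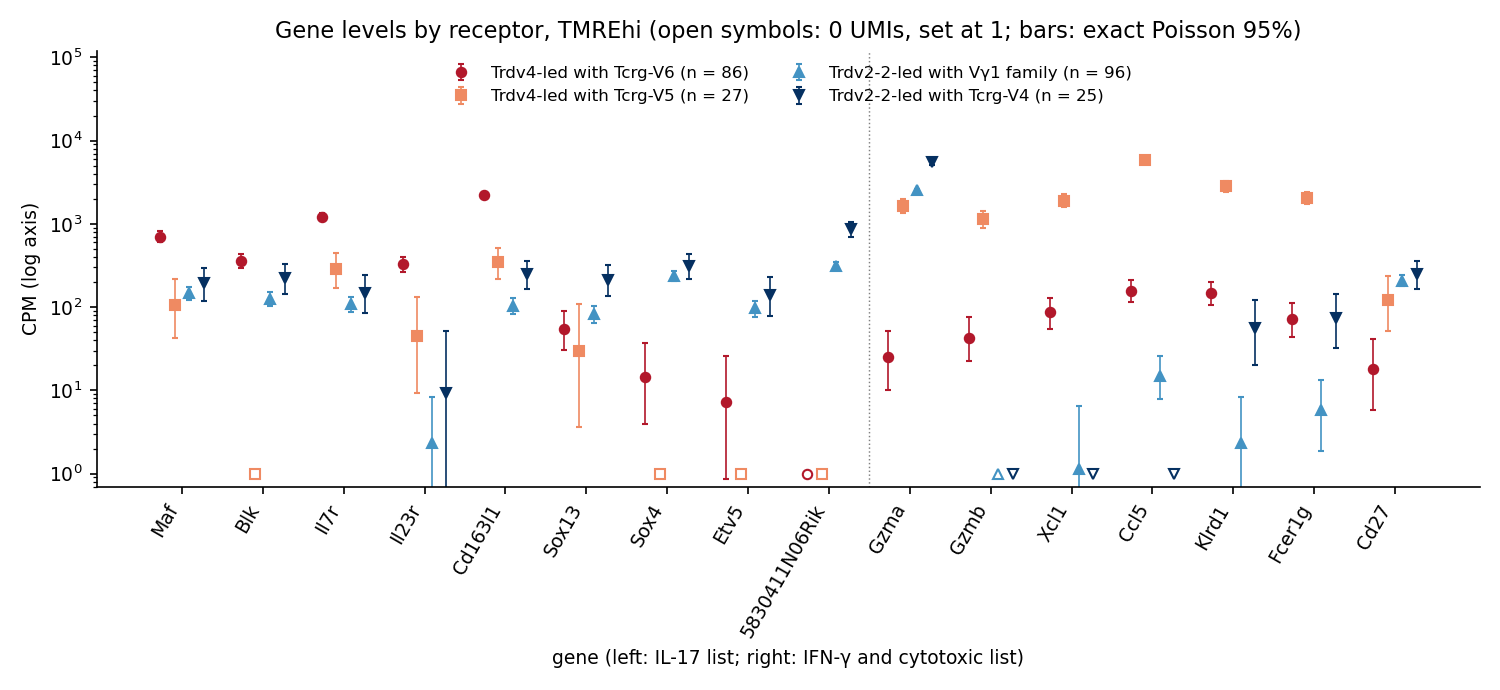
Levels of genes of the IL-17 list (left of the dotted line) and of the IFN-γ and cytotoxic list (right), in CPM on a log axis, in 4 sets of TMREhi barcodes defined by their leading δ and γ segments. Bars are exact Poisson 95% intervals and open symbols are genes at 0 UMIs; Cd163l1 is highest with Trdv4 and Tcrg-V6 (2209 CPM), Klrd1 with Trdv4 and Tcrg-V5 (2811 CPM), and 5830411N06Rik is at 0 UMIs in both Trdv4 sets.

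Barcodes led by Trdv2-2 were high in Gzma, the gene of granzyme A. It stood at 432 CPM with Trdv4 (45.5% of its UMIs in 1 barcode) and at 2603 CPM with Trdv2-2, 6.02-fold lower (5.27–6.91) with Trdv4. Thinned to 1000 UMIs, a Gzma UMI was in 6.79% of Trdv4-led barcodes (3.44–11.8) and in 57.7% of Trdv2-2-led ones (49.5–65.6). Several other genes of the list were scarce with Trdv2-2, where Gzmb had 127 UMIs with Trdv4 and 0 with Trdv2-2, Xcl1 207 and 3, and Klrd1 341 and 20. Nkg7, which encodes a protein of cytotoxic granules, was not among them, at 258 CPM with Trdv4 and 131 CPM with Trdv2-2, and Cd27, a costimulatory receptor, stood at 42.7 CPM and 216 CPM. Within the Trdv2-2-led barcodes, those with Tcrg-V4 (25) and those with the Vγ1 family (96) both had Gzma. It stood at 5576 CPM with Tcrg-V4, where 43.2% of its UMIs lay in 1 barcode, and at 2533 CPM with the Vγ1 family. 5830411N06Rik stood at 868 CPM (701–1062) with Tcrg-V4 and at 313 CPM (277–353) with the Vγ1 family, and Sox13 at 212 CPM (135–319) and 82.9 CPM (64.9–104). These sets also differed in depth, with medians of 2332 UMIs with Tcrg-V4 and 6977.5 with the Vγ1 family. Their median mitochondrial shares were 15.1% and 4.79%, and a smaller share of the Tcrg-V4 set was high-ribosomal. The part of depth, mitochondrial share and class in the differences between these sets was not tested. In Trdv5-led barcodes Gzma stood at 2438 CPM (2289–2595) and 5830411N06Rik at 412 CPM (352–479).

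The Trav15 family was compared with Trdv2-2 at close depth, with medians of 3490 and 3767.5 UMIs. Of 13 measured genes of the IFN-γ and cytotoxic list 10 were higher by 2-fold or more with the family and 1 lower, while 4.05% of the 7683 genes compared were higher and 3.11% lower. Of 14 measured genes of the IL-17 list 1 was higher and 6 lower. The median log2 ratio of the IL-17 list was -0.62 against 0.00 over all genes, and that of the IFN-γ and cytotoxic list was 2.995. In low-ribosomal barcodes 11 of 13 genes of the IFN-γ and cytotoxic list were higher and 1 lower (background 12.2% and 14.5%), and in high-ribosomal ones 8 of 11 and 1 (background 5.6% and 4.2%). The median log2 ratio of that list was 2.46 in low-ribosomal barcodes, or 1.67 at the bound, and 1.56 in high-ribosomal ones. Klrd1 stood at 309 CPM with the family and 17.2 CPM with Trdv2-2, 18.0-fold (11.3–30.0), and Fcer1g at 205 CPM and 13.7 CPM, 14.9-fold (8.88–26.9). Gzma was the 1 lower gene, at 988 CPM and 2603 CPM. Thinned to 1000 UMIs, a Klrd1 UMI was in 24.04% of family-led barcodes (16.2–33.4) and in 1.92% of Trdv2-2-led ones (0.398–5.52).

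The single higher gene of the IL-17 list was Zbtb16, which encodes the factor PLZF of innate-like T cells. It stood at 56.1 CPM (38 UMIs in 28 barcodes) with the Trav15 family and at 16.3 CPM (19 UMIs) with Trdv2-2, 3.44-fold (1.93–6.31). After thinning, a Zbtb16 UMI was in 5.77% of family-led barcodes (2.15–12.1) and in 4.49% of Trdv2-2-led ones (1.82–9.03), so the shares were not distinguishable at that depth. Blk had 5 UMIs with the family and 144 with Trdv2-2, and Maf stood at 47.3 CPM and 143 CPM, 3.02-fold lower (2.06–4.56). Among the 3 segments, Klrd1 stood at 453 CPM (379–536) with Trav15d-1-dv6d-1, 242 CPM (179–321) with Trav15-1-dv6-1 and 149 CPM (98.2–217) with Trav15-2-dv6-2, of which 20.1%, 52.1% and 44.4% lay in 1 barcode. Trac, the constant gene of the α chain, stood at 66.5 CPM with the family and 29.2 CPM with Trdv2-2, 2.27-fold (1.43–3.66), and its part in the result was not tested.

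Across the 292 high-ribosomal TMREhi barcodes, the genes whose level on the log2(CPM + 1) scale was most like that of Trdv4 among 7671 genes were Tcrg-V6 (Pearson r = 0.79), Serpinb1a (0.62), Selenop (0.59), H2-Q7 (0.58) and Cxcr6 (0.57). The least alike were Lck (-0.64), Plac8 (-0.61) and Stmn1 (-0.58). These barcodes share 1 library and differ in depth, and the correlations are descriptions. For Trdv2-2 the highest values were those of Gzma (0.44), Myb (0.35), Stmn1 (0.34) and Tmem121 (0.33). For the 4 other members with at least 100 UMIs in TMREhi the highest r was 0.30 (Rida, with Trav15-1-dv6-1), which in counts this sparse is no finding.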

How the data were processed

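Each library holds raw UMI counts per gene and barcode as the authors deposited them, made with Cell Ranger 3.0 on mm10 per the submitters' processing notes (3.0.2 per the file headers). Neither the annotation release nor the use of strand in counting is given in the sources used here. Barcodes with at least 500 genes were kept, and those under 15% ribosomal protein UMIs were called low-ribosomal. A barcode's leading segment is its single most abundant one, and ties stay in the denominator. Intervals are exact Poisson, exact Clopper-Pearson or exact conditional 95% intervals. Thinning used 1 draw without replacement. Genes were compared at a mean of at least 10 CPM and called at 2-fold, and a set at 0 UMIs was given a floor of 3 counts. CPM ratios, their intervals and calls at 1.5-fold were tested on simulated counts of whole libraries, without spread between barcodes. The choice of a leading segment was checked on a small matrix with known answers. Thinning, double use, partners, sets of barcodes and correlations were not tested in this way. Named were all members with at least 20 UMIs, the 5 genes most correlated with Trdv4 and the 4 most correlated with Trdv2-2 (for the 4 other members of at least 100 UMIs in TMREhi only the highest correlation is given), and genes of fixed lists for the γδ receptor, recombination, the αβ lineage and the IL-17 and IFN-γ and cytotoxic programmes. Members and lists were chosen with earlier results of these data known, and the comparison of the Trav15 family with Trdv2-2 was added after its values were seen. Genes in the text were picked from the lists with their values known. The values of 1 listed and 1 correlated gene are not reported here. Of the 31053 gene IDs, 30934 matched GENCODE vM21. Sequence windows were compared with transcripts of other genes, not with the chromosome. Tools were scanpy 1.11.5 (with Scrublet), scipy 1.17.1, Biopython 1.88, pandas 2.3.3, numpy 2.4.6 and matplotlib 3.10.9 under Python 3.11.15. Alternatives were a minimum of 1000 genes, at most 10% mitochondrial UMIs, ribosomal limits of 10% and 20%, 2 UMIs per segment, thinning, removal of doublet calls and of top barcodes, and other fold and CPM limits.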

Additional observations from a re-analysis of the deposited data

How the results depend on the processing

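With 1 library per fraction, differences between libraries and between fractions cannot be told apart, and the 67 TMRElo barcodes with a δ V UMI limit every share there. No paired analysis was possible because each group has 1 library and no result comes from a test. Among the main results 66 alternatives stayed and 35 moved, and among the others 127 stayed and 14 moved. For shares and ratios, to stay means to lie within the counting interval of the main value. The counts of genes past a fold have no such interval, and their labels are included in these numbers. Shares have no sign, but directions turned: with at least 1000 genes Trdv2-2 led more TMREhi barcodes than Trdv4, and with at least 1000 genes or thinned to 2000 UMIs Trdv4 held a smaller share of δ V UMIs in TMREhi than in TMRElo. In TMRElo, at least 1000 genes and thinning to 2000 UMIs left 18 and 7 barcodes with a δ V UMI. Both settings kept the barcode with 33 Trdv4 UMIs. The cause was not tested beyond this, except that thinning and filters leave fewer UMIs or barcodes.

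With at least 1000 genes, Trdv4 led in 20.6% of TMREhi and 11.1% of TMRElo barcodes, Trdv2-2 led in 30.5% of TMREhi and 16.7% of TMRElo barcodes, Trdv4 held 40.4% and 54.1% of δ V UMIs, and double use was 22.2% and 33.3%, in TMREhi and TMRElo. With at most 10% mitochondrial UMIs, Trdv4 led in 0.0% of TMRElo barcodes (0 of 23) and held 41.9% of the UMIs in TMREhi and 2.0% in TMRElo, double use was 26.1% and 34.8%, and the Vγ1 family led in 90.8% of Trdv2-2 barcodes. With 2 UMIs per segment, Trdv4 led in 38.7% of TMREhi barcodes and held 50.6% and 37.6% of the UMIs in TMREhi and TMRElo, and double use was 9.36% and 6.90%. Thinned to 1000 UMIs, in TMREhi Trdv4 led in 38.1% and Trdv2-2 in 22.1%, Trdv4 held 57.6% of the UMIs, double use was 8.17%, Tcrg-V6 led in 51.2% of Trdv4 barcodes and the Vγ1 family in 63.6% of Trdv2-2 barcodes. Thinned to 2000 UMIs, Trdv4 led in 26.0% of TMREhi and 14.3% of TMRElo barcodes (1 of 7) and held 49.9% and 72.7% of the UMIs, Trdv2-2 led in 14.3% of TMRElo barcodes, and double use was 13.0% in TMREhi. Without its top barcode Trdv4 held 7.94% of the TMRElo UMIs, and its ratio of TMREhi to TMRElo was 6.66. At a mean of at least 50 CPM, 0 of 3 δ segments were higher and 1 lower in TMREhi. At 1.5-fold 2 were higher, and at 4-fold 0 were lower.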
